A study of Mus musculus with 6 samples.

Results

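The genes described here are 10 mouse paralogs of ubiquitously expressed genes that are known mainly from male germ cells: Taf7l, Nxf2, Rpl10l, Rpl39l, Slc25a31, Ldhc, Cox7b2, Psma8, Tuba3a and Tuba3b. They were read beside 12 ubiquitous parents, namely Taf7, Nxf1, Rpl10, Rpl39, Slc25a4, Slc25a5, Ldha, Cox7b, Psma7, Tuba1a, Tuba1b and Tuba1c. The 10 were picked by name out of 55536 Ensembl genes, with their difference between the groups already known, so that difference is given as a description and without a test. All 10 were found under 1 identifier each.

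The libraries came from embryonic stem cells of C57BL/6 mice, pluripotent cells of the early embryo kept in culture, and report the RNA of whole cultures. The WT group held 3 libraries of wild-type cells and the Max-KO group 3 libraries of cells with genotype Max-/-, both without any stated treatment. The sources used here do not give how Max was removed, whether the Max-KO libraries came from 1 clone, or whether libraries of a group were separate cultures. A p-value therefore covers the spread among these libraries only, which may be technical. Max itself was listed at 41.6, 50.2 and 42.3 FPKM in WT 1 to 3 and at 35.8, 39.6 and 43.4 FPKM in Max-KO 1 to 3 (log2 difference −0.17, 95% interval −0.40 to 0.06, limma adjusted p = 0.168). A total over a whole gene does not show which exons remain, so this level does not check the genotype, and WT and Max-KO stand throughout for libraries so labelled. The values were read as FPKM, which is fragments per kilobase of transcript, scaled to the mapped fragments of the library. On that reading levels of different genes can be compared. An estimate from the steps of low values put the depth at 21100000 to 28500000 fragments per library. Summed over all identifiers the FPKM came to 743406 to 774405 in WT and 645169 to 658361 in Max-KO, a gap between the groups that scaling can shift.

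The libraries carried the markers of embryonic stem cells, little of the spermatid and Sertoli cell markers, and in Max-KO some transcripts of the Leydig cell list. Pou5f1, a core pluripotency factor, stood between 864 and 1029.9 FPKM in all 6 libraries. The spermatid markers Prm2, Tnp2 and Odf1 were listed at 0 in every library, and the 6 spermatid markers summed to 0 to 0.19 FPKM in WT and 0.05 to 0.45 FPKM in Max-KO. The 5 Sertoli cell markers summed to 0.65 to 0.90 FPKM in WT and 0.68 to 1.53 FPKM in Max-KO, with Cldn11 at 0 throughout. The 5 Leydig cell markers summed to 1.94 to 3.40 FPKM in WT and 10.5 to 11.29 FPKM in Max-KO, where Cyp11a1 (6.66 FPKM) and Star (4.07 FPKM) made up almost all of it, levels like those of the lowest members, Ldhc, Tuba3b and Cox7b2. Cyp17a1 and Hsd3b1 were at most 0.06 and 0.07 FPKM, and the Leydig hormone gene Insl3 was at 0.30 to 1.60 FPKM in WT and at most 0.33 FPKM in Max-KO. The part of other cells in the members' levels was not tested. Fibroblast markers summed to 7.47 to 7.78 FPKM and 7.61 to 9.74 FPKM. In such bulk RNA a few cells with much of a transcript and many cells with little of it cannot be told apart.

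Many housekeeping genes have a second copy that is active mainly during sperm formation, some of them made by reverse transcription of the parent's mRNA. Such a copy can stand in for an X-linked parent that is silenced in meiosis, or give the germ cell a variant of a common complex. In embryonic stem cells many germ cell genes are kept silent by a Polycomb complex that contains MAX with its partner MGA, which bind the E-box, and E2F6, which binds a site with its own core.

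The promoters of the members are shown first, because some of them hold candidate letters for those proteins. Windows of 300 bases (250 before the annotated start and 50 after it) came from RefSeq for build GRCm38.p6. They covered 9 of the 10 members, all but Psma8, with 11 windows, since Ldhc and Nxf2 have 2 starts each. They were searched on both strands for the E-box CACGTG, the E2F6 core TCCCGC and the T-box site AGGTGTGA, the other type of site that MGA can bind. These motifs do not overlap in the windows below. The first 3 sequences were chosen because they hold the E-box, and the 2 Tuba3 sequences because they hold the E2F6 core in a stretch that both share. Capitals mark the matches and each sequence runs 5′ to 3′ along the gene.
Taf7l, chrX:134476441-134476740, minus strand: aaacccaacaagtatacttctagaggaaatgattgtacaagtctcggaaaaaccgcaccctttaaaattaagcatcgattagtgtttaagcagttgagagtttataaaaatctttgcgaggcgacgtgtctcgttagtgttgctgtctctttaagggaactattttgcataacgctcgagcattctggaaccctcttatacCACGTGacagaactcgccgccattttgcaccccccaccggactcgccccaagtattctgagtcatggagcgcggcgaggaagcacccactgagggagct
Nxf2 (first start), chrX:134964705-134965004, minus strand: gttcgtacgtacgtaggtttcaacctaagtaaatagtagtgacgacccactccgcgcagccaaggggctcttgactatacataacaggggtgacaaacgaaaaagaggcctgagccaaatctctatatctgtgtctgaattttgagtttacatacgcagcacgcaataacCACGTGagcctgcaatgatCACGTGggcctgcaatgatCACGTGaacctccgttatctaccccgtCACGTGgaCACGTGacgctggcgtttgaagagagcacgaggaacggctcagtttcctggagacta
Slc25a31, chr3:40708621-40708920, plus strand: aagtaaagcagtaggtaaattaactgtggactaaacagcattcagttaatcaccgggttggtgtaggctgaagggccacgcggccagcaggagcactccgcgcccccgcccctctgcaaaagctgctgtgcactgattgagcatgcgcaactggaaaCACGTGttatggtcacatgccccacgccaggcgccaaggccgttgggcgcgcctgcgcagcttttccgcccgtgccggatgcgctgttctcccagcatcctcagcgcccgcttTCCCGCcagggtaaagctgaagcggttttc
Tuba3a, chr6:125286032-125286331, minus strand: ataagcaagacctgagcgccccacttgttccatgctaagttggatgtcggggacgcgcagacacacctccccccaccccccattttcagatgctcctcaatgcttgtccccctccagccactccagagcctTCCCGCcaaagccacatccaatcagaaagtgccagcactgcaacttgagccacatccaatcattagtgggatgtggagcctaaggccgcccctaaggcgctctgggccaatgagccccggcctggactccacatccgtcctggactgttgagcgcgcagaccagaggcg
Tuba3b, chr6:145615713-145616012, plus strand: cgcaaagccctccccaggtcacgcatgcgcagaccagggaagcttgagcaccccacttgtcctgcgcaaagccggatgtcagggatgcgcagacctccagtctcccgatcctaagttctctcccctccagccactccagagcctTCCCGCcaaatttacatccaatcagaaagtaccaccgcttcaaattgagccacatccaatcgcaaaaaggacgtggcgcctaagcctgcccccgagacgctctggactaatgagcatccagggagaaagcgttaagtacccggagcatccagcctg

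The Nxf2 window held 5 E-boxes within the last 80 bases before the start, beginning 80, 61, 42, 15 and 7 bases upstream. Of 32851 windows of this length in the RefSeq table, 5 held 5 or more E-boxes. Taf7l had 1 E-box 49 bases upstream, and Slc25a31 had 1 E-box 93 bases upstream and 1 E2F6 core 20 bases inside the transcript. Counted by gene, 3 of 9 members held an E-box (33.3%), against 8.09% of 27025 genes with a window and 1 of 11 parents, which was Ldha with 2 E-boxes. Of 45 other germ cell paralogs with a window, a list taken up further on, 7 held one (15.56%).

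The E2F6 core was found in 6 of 9 members, Rpl10l, Slc25a31, Cox7b2, Nxf2 (at its second start), Tuba3a and Tuba3b. It was also found in 6 of 11 parents, against 22.05% of all genes and 24.44% of the other germ cell paralogs, so members and parents held it in similar shares. Tuba3a and Tuba3b shared a stretch of 33 bases around it, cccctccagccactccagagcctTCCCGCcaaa, which begins at position −142 from the start in Tuba3a and −129 in Tuba3b. These positions are counted from the RefSeq start. In the GENCODE annotation, from which the gene positions below were taken, Tuba3b begins further upstream, at 145615757. By that annotation the shared stretch lies inside Tuba3b. The T-box site was in no member window. Rpl39l and both Ldhc starts held none of the 3 motifs. Member windows had a median GC content of 53.3% and a median ratio of observed to expected CpG of 0.68, against 61.0% and 0.78 in parents and 52.7% and 0.38 in all windows. These are matches of letters, and no binding was measured.

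**Figure D1:**
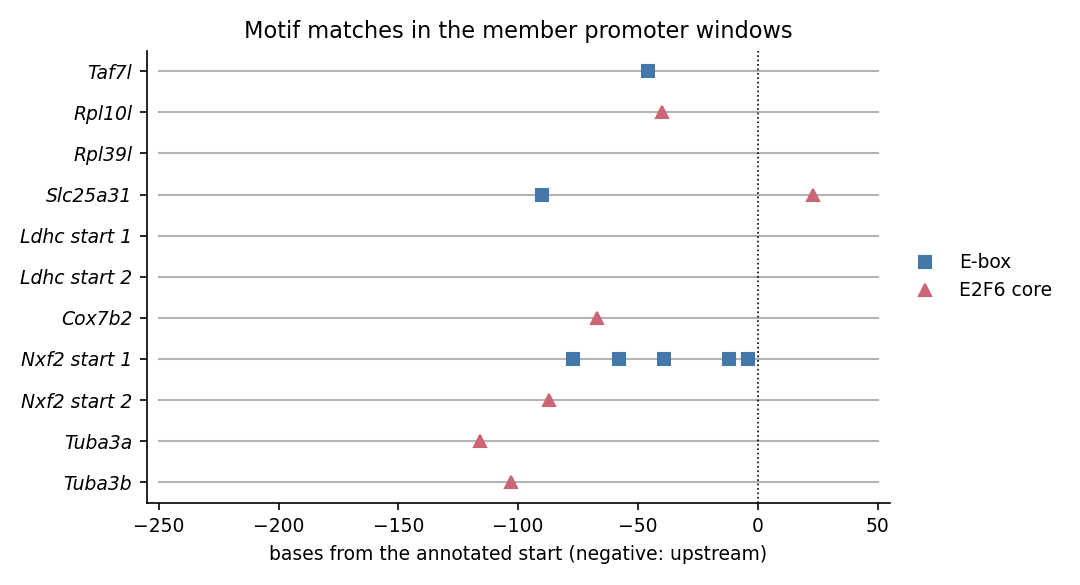
Motif matches in the 11 promoter windows of 9 members, by distance in bases from the annotated start (dotted line; negative values are upstream). Squares are E-boxes and triangles are E2F6 cores on either strand. The 5 E-boxes of the first Nxf2 start lie within 80 bases of it, and the windows of Rpl39l and Ldhc are empty.

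In the libraries labelled Max-KO all 10 members were higher than in WT, with no overlap between the groups for any of them. Such a separation, with Max-KO higher, held for 46.3% of the 14661 genes tested, and since the members were picked on this contrast nothing is read from the count. The sizes ranged widely. The log2 difference, taken as the Max-KO mean less the WT mean of log2(FPKM + 1), ran from 0.60 in Psma8 to 6.32 in Taf7l, with a median of 2.69 beside 0.21 for all genes tested. A total of 5 members had a WT mean under 1 FPKM (Taf7l, Nxf2, Slc25a31, Cox7b2 and Tuba3b), and these entered the table of tested genes only through Max-KO.

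**Figure D2:**
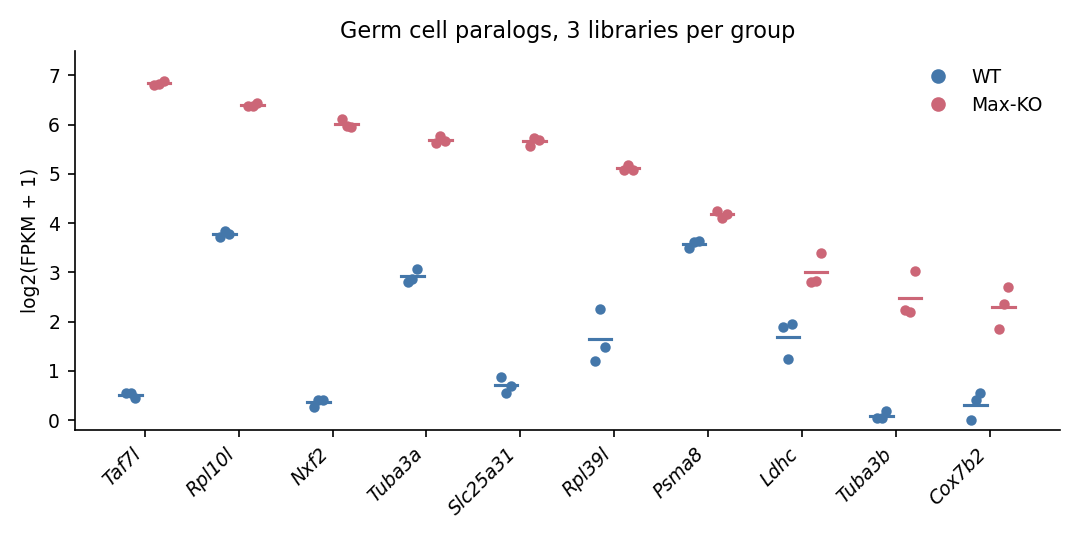
Level of the 10 members as log2(FPKM + 1) in each library, ordered by the Max-KO mean. Points are the 3 libraries of WT (blue) and of Max-KO (red) and lines are group means. Every Max-KO point lies above every WT point of the same gene, and Taf7l and Nxf2 go from near 0 to the upper part of the range.

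Taf7l encodes a germ cell relative of TAF7, a subunit of the general transcription factor TFIID. It (ENSMUSG00000009596; GRCm38 chromosome X, 134460118 to 134476490, minus strand, 13 exons) was listed at 0.46, 0.47 and 0.37 FPKM in WT 1 to 3 and at 110.4, 112 and 118 FPKM in Max-KO 1 to 3. WT was close to silent, and the Max-KO level was higher than that of 94.4% of the genes tested. The mean was 262 times that of WT, and its log2 difference of 6.32 ranked 2 among the genes tested.

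Nxf2 encodes a relative of the mRNA export receptor NXF1. It (ENSMUSG00000009941; chromosome X, 134944526 to 134964754, minus strand, 22 exons) was at 0.21, 0.32 and 0.32 FPKM in WT 1 to 3 and at 68.5, 61.7 and 61.1 FPKM in Max-KO 1 to 3. The 3 libraries of a group lay close together, and the Max-KO mean was 225 times the WT mean. Its log2 difference of 5.66 ranked 6 among the genes tested.

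Rpl10l and Rpl39l encode variants of ribosomal proteins of the large subunit. Rpl10l (ENSMUSG00000060499; chromosome 12, 66283379 to 66284401, minus strand) has a single exon, and it was the highest member in WT. It stood at 12.2, 13.4 and 12.8 FPKM in WT 1 to 3 and at 81.8, 82.4 and 85.4 FPKM in Max-KO 1 to 3, which is 6.51 times the WT mean. Rpl39l (ENSMUSG00000039209; chromosome 16, 10170226 to 10174911, plus strand, 3 exons) was at 1.31, 3.77 and 1.81 FPKM in WT 1 to 3 and at 32.7, 35.5 and 32.6 FPKM in Max-KO 1 to 3. WT 2 held more than the other WT libraries, and the lowest Max-KO library was still 8.66 times WT 2.

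The members of energy metabolism stood at very different levels. Slc25a31, the germ cell carrier that exchanges ADP and ATP across the inner mitochondrial membrane (ENSMUSG00000069041; chromosome 3, 40708855 to 40726096, plus strand, 6 exons), was at 0.83, 0.47 and 0.62 FPKM in WT 1 to 3. Its Max-KO levels were 46.4, 51.7 and 50.7 FPKM, 77.4 times the WT mean. Ldhc, the lactate dehydrogenase of sperm (ENSMUSG00000030851; chromosome 7, 46861203 to 46878142, plus strand, 8 exons), was at 2.72, 1.36 and 2.88 FPKM in WT 1 to 3 and at 5.94, 6.06 and 9.46 FPKM in Max-KO 1 to 3. Max-KO 3 stood above the other Max-KO libraries, and the lowest Max-KO level was 2.06 times the highest WT level.

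Cox7b2 encodes a testis form of a small subunit of cytochrome c oxidase (ENSMUSG00000049387; chromosome 5, 71442824 to 71548205, minus strand, 3 exons). It was the lowest member in Max-KO, at 2.60, 4.10 and 5.54 FPKM, and WT 1 to 3 listed 0, 0.32 and 0.46 FPKM. With its transcript of 542 bases the WT values stand for an estimated 0, 2 and 3 fragments and the Max-KO values for 18, 24 and 44, so the size of its difference is poorly set at this depth.

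Psma8 encodes the germ cell alpha subunit that replaces PSMA7 in the proteasome core, and it differed least between the groups. Its level (ENSMUSG00000036743) stood at 10.3, 11.2 and 11.4 FPKM across the WT libraries, beside 17.99, 16.2 and 17.3 FPKM across the Max-KO libraries. The groups did not overlap, yet the Max-KO mean was only 1.56 times the WT mean. Its log2 difference was 0.60, which became 0.82 on a TPM scale, 0.36 with median-ratio factors and 0.35 with quantile normalization, and its rank among the genes tested was 4273.

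Tuba3a and Tuba3b encode alpha-tubulins and lie on chromosome 6, the first at 125278274 to 125286042 on the minus strand and the second at 145615757 to 145621479 on the plus strand. Tuba3a (ENSMUSG00000067702) was at 6.02, 6.32 and 7.38 FPKM in WT 1 to 3 and at 48.8, 53.2 and 50.2 FPKM in Max-KO 1 to 3, with a mean 7.71 times that of WT. Tuba3b (ENSMUSG00000067338) was at 0.03, 0.03 and 0.14 FPKM in WT 1 to 3 and at 3.68, 3.56 and 7.16 FPKM in Max-KO 1 to 3, where Max-KO 3 stood well above the others. Its WT values stand for an estimated 1, 1 and 5 fragments. The coding sequences of the 2 genes were 97.0% identical and 18.9% of the 75-base words of the Tuba3b transcript recurred in other transcripts, chiefly in Tuba3a, so the split between them is uncertain and their sum is used further on. A transcript on the other strand, 4930417O13Rik, spans Tuba3a and was at a mean of 0.0733 FPKM in WT and 0.00333 FPKM in Max-KO.

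Among the members, stretches shared with other genes, where reads cannot be assigned, were found mainly in Tuba3a and Tuba3b, at 19.9% and 18.9% of their 75-base words. For Taf7l, Rpl39l, Slc25a31, Ldhc, Cox7b2, Nxf2 and Psma8, 0% of the 75-base words recurred in any transcript of another gene, and for Rpl10l 0.3% did. Coding identity to the parent was highest for Rpl39l (85.0%, over 153 bases), for Tuba3b against Tuba1b (85.1%) and for Rpl10l (84.7%). It was 74.3% for Psma8, 68.0% for Ldhc, 65.1% for Cox7b2, 57.7% for Nxf2 and 49.0% for Taf7l. Slc25a31 was 62.4% identical to Slc25a5. The sources used here do not give the read length, and shorter reads or mismatches allowed by the aligner would share more.

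In order of their Max-KO level the members ran Taf7l (113 ± 3.93 FPKM; SD, n = 3), Rpl10l (83.2 ± 1.94), Nxf2 (63.7 ± 4.14), Tuba3a (50.7 ± 2.28), Slc25a31 (49.6 ± 2.82), Rpl39l (33.6 ± 1.62), Psma8 (17.2 ± 0.913), Ldhc (7.15 ± 1.999), Tuba3b (4.80 ± 2.04) and Cox7b2 (4.08 ± 1.47). Neighbouring levels overlapped between Tuba3a and Slc25a31, between Ldhc and Tuba3b, and between Tuba3b and Cox7b2. The order in WT was another one, with Rpl10l (12.8 ± 0.575 FPKM), Psma8 (10.98 ± 0.564) and Tuba3a (6.57 ± 0.715) on top and Taf7l at 0.433 ± 0.0551 FPKM. Taf7l stood above 6.92% of the tested genes in WT and Nxf2 above 5.13%, and in Max-KO above 94.4% and 88.9% of them.

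Most of the ubiquitous parents were lower in the same libraries. By limma, with Benjamini-Hochberg adjustment over all 14661 genes tested, 9 of 12 parents fell, 1 rose and 2 did not pass an adjusted p of 0.05. Of all genes tested 66.2% were called, 23.2% as lower and 43.0% as higher, and the members' own calls are left unread for the reason above. The parents' median log2 difference was −0.70, beside 0.21 for all genes tested, and it stayed below 0 under the 3 other scalings (−0.96 to −0.44). All 12 parents had a WT mean of 40.2 FPKM or more, while 57.6% of the genes tested were below the 12.8 FPKM of Rpl10l in WT. Genes at a level like that of the parents were not set apart, so whether the fall is particular to the parents was not tested.

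Ldha, which makes lactate in most tissues, fell the most of the parents. It was at 1143, 1144 and 1354 FPKM in WT 1 to 3 and at 269, 294 and 332 FPKM in Max-KO 1 to 3 (log2 difference −2.02 ± 0.10 SE, limma adjusted p = 7.74e-06). The main carrier Slc25a5 was at 669, 668 and 758 FPKM in WT and 286, 273 and 277 FPKM in Max-KO and fell by 1.32 on the log2 scale. It shares 27.9% of its 75-base words with other genes, so its level is uncertain. Slc25a4 fell from 129 ± 6.38 to 85.4 ± 5.54 FPKM (SD, n = 3). The groups were well apart for all 3 genes, in the direction opposite to that of Ldhc and Slc25a31.

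Rpl10 was at 725, 646 and 711 FPKM in WT 1 to 3 and at 295, 297 and 294 FPKM in Max-KO 1 to 3, a log2 difference of −1.23 ± 0.06 SE. Rpl39 fell by 0.54 on the log2 scale (limma adjusted p = 0.00102), its mean going from 784 ± 79.7 to 538 ± 23.5 FPKM (SD, n = 3). This call was lost under quantile normalization, where the difference was −0.06 (limma adjusted p = 0.385). Rpl10 shares 53.0% of its 75-base words with other genes, mostly pseudogenes, so its level is uncertain. The proteasome subunit Psma7 fell from 322 ± 33.0 to 202 ± 7.11 FPKM (SD, n = 3).

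Of the alpha-tubulins, which share between 56.7% and 78.3% of their 75-base words with other transcripts, Tuba1b fell from 1591 ± 178 to 746 ± 32.4 FPKM (SD, n = 3). Tuba1a and Tuba1c fell by 0.74 and 0.77 on the log2 scale. WT 3 held the highest level of all 3, and all 9 falls passed also with it left out.

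Taf7, Nxf1 and Cox7b did not follow the other parents. Taf7 rose, with 43.2, 43.3 and 34.2 FPKM in the WT libraries and 63.1, 63.5 and 57.5 FPKM in the Max-KO libraries (log2 difference 0.61 ± 0.10 SE, limma adjusted p = 0.00153). Nxf1 stood at 81.6, 80.5 and 77.7 FPKM in WT and 79.4, 82.2 and 84.0 FPKM in Max-KO, overlapping groups with a log2 difference of 0.03 (95% interval −0.08 to 0.15, limma adjusted p = 0.559). It was called higher after rescaling to TPM (0.25, limma adjusted p = 0.00417) and lower under median-ratio scaling (−0.22, limma adjusted p = 0.01), so its direction depends on the scaling. Cox7b was at 116, 136 and 107 FPKM in WT and 107, 108 and 117 FPKM in Max-KO (−0.10, 95% interval −0.32 to 0.12, limma adjusted p = 0.36), and passed as lower under median-ratio scaling alone (−0.36, limma adjusted p = 0.00881).

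**Figure D3:**
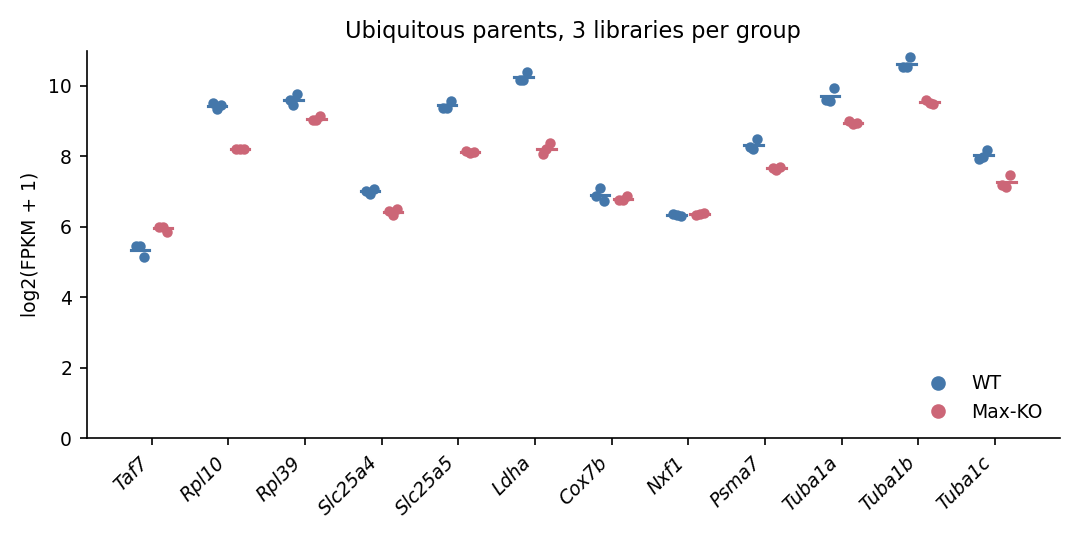
Level of the 12 ubiquitous parents as log2(FPKM + 1) in each library, with WT in blue, Max-KO in red and lines at group means of 3 libraries. The Max-KO points lie below the WT points for 9 parents, above them for Taf7, and among them for Cox7b and Nxf1.

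The level of a paralog can be set against its parent within 1 library, which removes any scaling between libraries. The share of the pair's FPKM held by the paralog was a description for the reason given above. The words that Rpl10, Slc25a5 and the Tuba1 genes share with other genes make the shares in their pairs uncertain too. Taf7l made up 1.05%, 1.08% and 1.07% of the sum of Taf7l and Taf7 in WT 1 to 3, and 63.6%, 63.8% and 67.2% in Max-KO 1 to 3. It was the only member to exceed its parent in any of the 6 libraries. Nxf2 went from 0.257%, 0.396% and 0.410% of the pair with Nxf1 to 46.3%, 42.9% and 42.1%.

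Rpl10l held 1.82 ± 0.189% (SD, n = 3) of its pair in the WT libraries and 22.0 ± 0.472% in the Max-KO libraries. Slc25a31 held 0.0775 ± 0.0233% of the 3 carrier genes in WT and 11.999 ± 0.871% in Max-KO. The other shares in Max-KO were 7.82 ± 0.263% for Psma8, 5.88 ± 0.415% for Rpl39l, 3.82 ± 0.265% for Tuba3a with Tuba3b, 3.51 ± 1.08% for Cox7b2 and 2.32 ± 0.400% for Ldhc. In WT these 5 shares were 3.32 ± 0.302%, 0.302 ± 0.198%, 0.246 ± 0.00731%, 0.221 ± 0.215% and 0.189 ± 0.0625%. The WT share of Rpl39l was 0.188% without WT 2, and that of Cox7b2 was 0.117% without WT 3.

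The gain of the paralog and the loss of the parent were of different size. For the Rpl10 pair the paralog gained 70.4 FPKM and the parent fell by 399 FPKM, so the sum of the pair was 707 ± 41.6 FPKM (SD, n = 3) in WT, and 379 ± 1.47 FPKM in Max-KO. The carriers summed to 828 ± 56.6 and 413 ± 8.21 FPKM, and the lactate dehydrogenase pair to 1216 ± 122 and 305 ± 33.4 FPKM. On the FPKM scale the sum was higher in Max-KO for the pairs of Taf7l (40.6 ± 5.26 to 175 ± 1.14 FPKM) and Nxf2 (80.2 ± 1.92 to 146 ± 2.09 FPKM) alone. The Cox7b2 pair was nearly level, at 120 ± 15.2 FPKM in WT and 115 ± 6.74 FPKM in Max-KO. Scaling between libraries can shift all these sums.

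**Figure D4:**
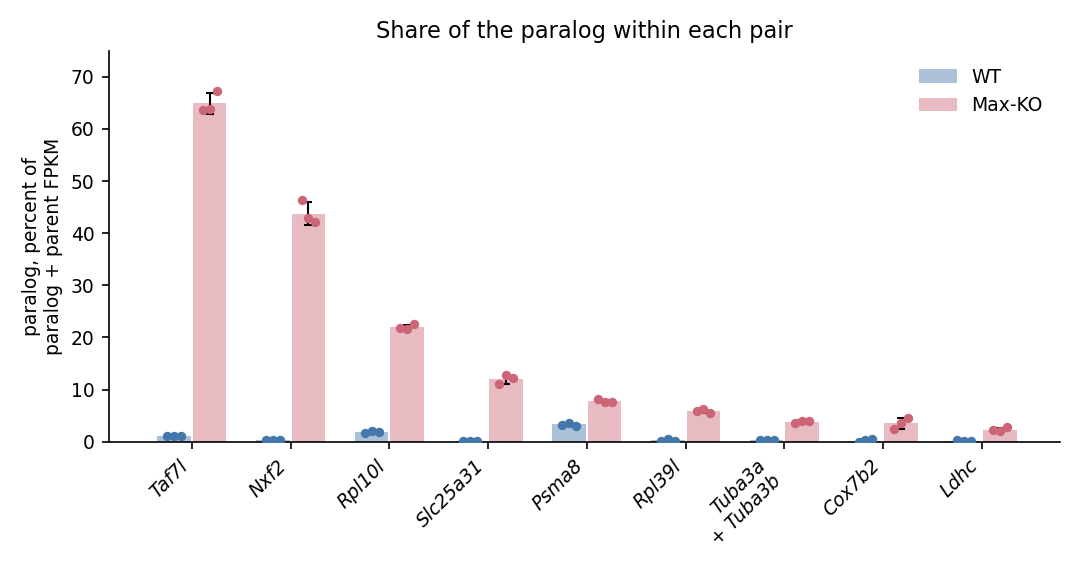
Share of the paralog in the summed FPKM of paralog and parents, in percent, for 9 pairs. Bars are means of 3 libraries, error bars are SD and points are single libraries, with WT in blue and Max-KO in red. Taf7l reaches 64.9% and Nxf2 43.8% in Max-KO, Rpl10l 22.0% and Slc25a31 11.999%, and the means of the other 5 lie between 2.32% and 7.82%.

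The members are spread over 8 chromosomes. The X-linked parents Rpl10, Rpl39, Slc25a5 and Cox7b all have their paralog on an autosome, while Taf7l and Nxf2 are themselves X-linked with autosomal parents. The nearest tested protein-coding genes on each side of the members numbered 20, picked by position after the members' values were known. Of these 7 were called higher and 3 lower by limma, with a median log2 difference of 0.22, against 43.0% and 23.2% of all genes tested and a median of 0.21. Of the 5 called higher by at least 1 on the log2(FPKM + 1) scale, as were 2034 of all 14661 genes tested, 4 were under 1 FPKM in WT. These 4 counted as nearest tested genes only through Max-KO, so nothing is read from the counts and only their levels are given. Grin2a, a glutamate receptor subunit 175 kb from Rpl39l, was at 0.24 ± 0.144 FPKM in WT and 6.20 ± 1.00 FPKM in Max-KO (SD, n = 3). Drp2, a relative of dystrophin 3.54 kb from Taf7l, was at 0.197 and 2.04 FPKM. The unnamed gene Gm15023, 203 kb from Nxf2 on the far side, was at 0.02 and 1.11 FPKM. Wdr20rt, which is 1050 kb from Rpl10l, was at 0.403 and 2.08 FPKM. The fifth, Hspa4l, a heat shock protein gene 18.4 kb from Slc25a31, rose from 1.39 ± 0.542 to 8.61 ± 4.30 FPKM (SD, n = 3).

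Ldhc shows the contrast at the shortest range, since its nearest neighbour is its own parent. Ldha ends 5.58 kb before Ldhc begins, on the same strand, and fell by 2.02 on the log2 scale while Ldhc had a difference of 1.30. Tsg101, an endosomal sorting gene 10.8 kb to the other side, was at 43.8 ± 4.26 FPKM in WT and 44.9 FPKM in Max-KO (log2 difference 0.04, 95% interval −0.14 to 0.22).

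Taf7l and Nxf2 lie 505 kb apart from end to end on the X chromosome, with 10 other protein-coding genes between them. Of the 9 that were tested none was called higher and 2 were called lower, Timm8a1 and the ribosomal protein gene Rpl36a, where 43.0% and 23.2% of all genes tested were called. At an unadjusted p under 0.05 by limma, 2 were higher, Armcx3 and Armcx4. Timm8a1, an import chaperone of mitochondria that lies 60.8 kb from Taf7l, fell by 1.31 on the log2 scale, its mean going from 28.3 ± 1.27 to 10.9 FPKM (limma adjusted p = 3.01e-05). The 5 Armcx genes of the interval were not called, with differences of −0.31 to 0.46.

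**Figure D5:**
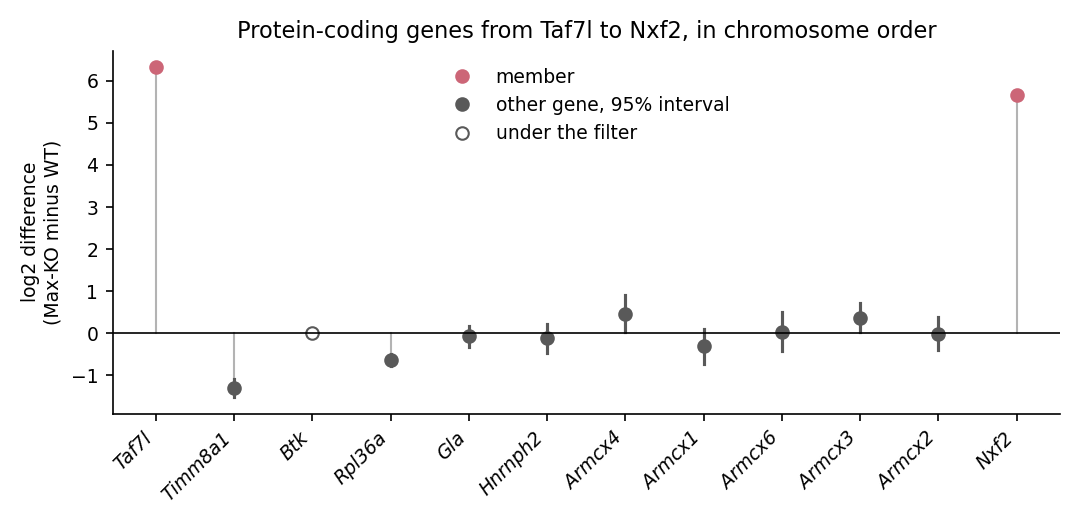
Log2 difference (Max-KO minus WT, log2(FPKM + 1) scale) of the 12 protein-coding genes from Taf7l to Nxf2, in their order on the chromosome. Red points are the 2 members, grey points other genes with their 95% interval, and the open point a gene under the filter. The members stand at 6.32 and 5.66, and the genes between them lie between −1.31 and 0.46.

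Other germ cell counterparts of ubiquitous genes went in both directions. They are not compared with the members, which were picked on this contrast. A list of 60 was drawn up from general knowledge, of which 59 were matched by symbol, 32 were under 1 FPKM in every library and 14 of these were listed at 0 throughout. Pgk2, the phosphoglycerate kinase of spermatids, was one of those at 0 (named after its values were seen). Of the 26 tested, 17 were called higher and 3 lower, but 10 of them had entered only through Max-KO. Of the 16 at 1 FPKM or more in WT, with a median log2 difference of 0.25, 7 were called higher and 3 lower, against 43.0% and 23.2% of all genes tested, and these counts were 10 and 2 on a TPM scale, 5 and 4 by quantiles and 5 and 5 with median-ratio factors.

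Of the listed genes with the largest differences, 5 were under 1 FPKM in WT and had entered only through Max-KO, so their levels are given without a test. Brdt, a testis bromodomain protein, was at 0.273 ± 0.142 FPKM in WT and 6.31 ± 0.902 FPKM in Max-KO (SD, n = 3). The transketolase relatives Tktl1 and Tktl2 were at 0.08 and 0.227 FPKM in WT, and at 3.98 and 2.41 FPKM in Max-KO. Papolb, a testis poly(A) polymerase, was at 0.497 and 5.73 FPKM, and Nxf7, a relative of Nxf2, at 0.713 and 3.78 FPKM. Nxf3, another relative of Nxf2 and already present in WT, rose by 1.83 ± 0.20 (SE) on the log2 scale (limma adjusted p = 2.23e-04). It stood at 9.21, 9.88 and 5.90 FPKM in the 3 WT libraries, and its Max-KO levels were 38.0, 29.0 and 28.5 FPKM. Usp26, a ubiquitin protease of the testis on the X chromosome, went the other way, with 26.9 ± 6.25 FPKM in WT and 12.99 ± 1.76 FPKM in Max-KO (SD, n = 3, a log2 difference of −0.98 at a limma adjusted p of 0.00296).

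The partners with which the member proteins work were mostly expressed in both groups. Of 40 partners, all tested, 12 were called higher and 15 lower (30.0% and 37.5%, against 43.0% and 23.2% of all genes tested), and the balance turned with the scaling, to 17 and 9 on a TPM scale, to 15 and 11 by quantiles and to 5 and 22 with median-ratio factors. Of 13 further TFIID subunits 8 rose and 2 fell, again against 43.0% and 23.2% of all genes, with Taf2 up from 28.2 to 50.7 FPKM and Taf10 down from 147 to 96.2 FPKM, and the counts were 10 and 1 on a TPM scale, 5 and 2 by quantiles and 2 and 2 with median-ratio factors. Nxt2, a cofactor of the NXF export receptors, rose, with 3.36, 4.08 and 2.72 FPKM in the WT libraries and 11.6, 13.5 and 10.6 FPKM in the Max-KO libraries (log2 difference 1.56 ± 0.14 SE, limma adjusted p = 9.60e-05). The other listed NXT cofactor, the more abundant Nxt1, fell from a mean of 42.5 FPKM in WT to 36.2 FPKM in Max-KO (log2 difference −0.23, limma adjusted p = 0.0396). That call was lost on a TPM scale.

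The partner of Ldhc and Ldha in mixed enzymes, Ldhb, fell from 224 ± 17.4 to 89.9 ± 10.5 FPKM (SD, n = 3). Of the other 6 proteasome alpha subunits 5 fell and none rose, against 23.2% and 43.0% of all genes tested, while Psma8 was higher. The number that fell was 3 on a TPM scale, 4 by quantiles and 6 with median-ratio factors, and none rose under any of these. The porin Vdac1 fell from 451 to 263 FPKM, and the beta-tubulin Tubb2a rose from 21.5 to 47.1 FPKM. Of the 5 further tubulins listed, Tubb2a among them, 2 were called higher and 3 lower, against 43.0% and 23.2% of all genes tested. The more abundant Tubb5 (963 to 675 FPKM) and Tubb4b (510 to 415 FPKM) fell. The tubulin counts were 2 and 2 on a TPM scale, 2 and 1 by quantiles and 1 and 3 with median-ratio factors.

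The genes closest to the 3 highest members were found by the distance between log2(FPKM + 1) values over the 6 libraries. Only tested genes were searched, with other members, predicted Gm and Rik genes and genes without a symbol left out. For Taf7l the closest of those searched were Mov10l1 (distance 0.97), Fkbp6 (1.43) and Spata22 (1.47). For Nxf2 they were Spata22 (0.76), H19 (0.77) and Rhox13 (0.88). Rpl10l, with its higher WT level, lay closest to Fmr1nb (0.15), Abcb1a (0.36) and Clu (0.38). Fmr1nb was at 11.5, 12.9 and 12.4 FPKM in WT 1 to 3, beside 12.2, 13.4 and 12.8 FPKM of Rpl10l. With 2 groups of 3 libraries this likeness rests almost wholly on the 2 group levels.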

How the data were processed

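RNA of 6 libraries, 3 WT and 3 Max-KO, was measured with Illumina TruSeq libraries, per the labels' protocols. The submitters' processing notes name FastQC, HISAT2 2.1.0, RSEM, DESeq 1.26.0 and build GRCm38.p6, without the role or order of each. The authors deposited 1 table per library without a header, whose values were read as FPKM. They have decimals and their sums differ between libraries, which alone does not settle the unit. Each table listed 56689 identifiers, of which 1153 assembled loci were left out. Symbols came from GENCODE for 55450 of 55536 Ensembl identifiers.

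A gene was tested if its WT or its Max-KO mean reached 1 FPKM. The test was on log2(FPKM + 1), which understates changes of low genes, by limma (version 3.58.1, run under R version 4.3.3; moderation was trended and robust, 2-sided, Benjamini-Hochberg adjustment, called at an adjusted p under 0.05). The fit was also run on simulated data with changes planted only in genes well above the filter, which does not check the calls of low genes. Depth was estimated from the steps of low FPKM in genes with 1 transcript, of which 86.3% to 88.5% came within 0.15 of whole fragments. Sequences were handled with Biopython 1.88 in Python 3.11.15.

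The members and lists were chosen with earlier results of these data known. The genes named are all members and parents, the 6 called genes with the largest difference in each further list with the largest in the opposite direction, and the 3 nearest to each of the 3 highest members. The search for nearest genes left out other members, predicted Gm and Rik genes and genes without a symbol. Genes named for position were chosen by position, and Nxt1, Tubb5 and Tubb4b are named as relatives of named partners. Alternatives were another pseudocount, 2 other filters, 3 scalings, plain moderation, a replicate block and leaving out each library.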

Additional observations from a re-analysis of the deposited data

How the results depend on the processing

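All 10 members stayed higher in Max-KO under every alternative run. Their median log2 difference was 3.87 with a pseudocount of 0.1, 2.56 by quantile normalization, 2.45 with median-ratio factors and 2.96 on a TPM scale, and 2.65 to 2.73 when single libraries were left out. The scalings moved the median of all genes tested from 0.21 to 0.41 (TPM), −0.01 (median-ratio) and −0.02 (quantile), and the share of calls that were higher from 64.9% to 76.9%, 47.5% and 46.7%. Nxf1, at 0.03 and not called in the main run, went to −0.22 under median-ratio scaling. The cause was not tested. Leaving out single libraries gave 8865 to 9420 called genes, 10 parents, 18 to 22 other paralogs and 24 to 28 partners. With the replicate number as a block, 9485 genes, 10 parents, 20 other paralogs and 27 partners were called, against 9703, 10, 20 and 27 without it. The labels do not say that equal numbers mark a pair, so the numbers were not used as pairs. The deviations of same-numbered libraries correlated at −0.001, 0.016 and 0.086, and those of differently numbered ones at −0.082 to 0.065. Correlations this small do not settle whether the libraries were paired. Members under 1 FPKM in WT rest on few fragments there, which limits their fold change.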
